A study of Mus musculus with 2 samples.

Results

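The genes described here encode carriers of amino acids, small peptides and amino acid-derived transmitters. They were chosen by symbol: every mouse gene whose symbol begins with Slc1a, Slc3a, Slc6a, Slc7a, Slc15a, Slc36a or Slc38a, without Slc38a4 and Slc7a11. Of the 37681 gene identifiers in the count files, 66 met this rule. Slc6a16, which also carries the prefix, is not analysed here. The study sorted histamine-making cells from the acid-secreting body of the mouse stomach (the corpus) to ask what gives rise to them. The reporter marks any cell with Hdc activity, mast cells included. Both libraries came from corpus epithelium of C57BL/6 mice transgenic for Hdc-CFP, a reporter in which cyan fluorescent protein marks activity of Hdc, the histidine decarboxylase gene. The sorted library (n = 1) was made from Hdc-CFP-positive cells and the depleted library (n = 1) from epithelial cells depleted of them, so the depleted cells carried the transgene too. The labels used here do not state age, number of mice or pooling.

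Enterochromaffin-like (ECL) cells of the corpus take up histidine and decarboxylate it to histamine, which is stored in granules. Histidine crosses the plasma membrane on carriers shared with other neutral amino acids. These include the system N carriers Slc38a3 and Slc38a5, which exchange sodium and protons and also move glutamine and asparagine. They also include the large neutral carriers Slc7a5 and Slc7a8, each of which works only when paired with the heavy chain Slc3a2. Slc15a3 and Slc15a4 move peptides and histidine across the lysosomal membrane. Other families return released transmitters to cells: Slc1a carries glutamate, and Slc6a carries GABA, glycine, serotonin, taurine and creatine.

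Reads counted in genes came to 10736538 for sorted cells and 50928524 for depleted epithelium. Levels are normalised CPM (counts scaled to library size and to TMM factors), and folds are sorted over depleted. The 95% interval in brackets reflects counting noise alone. Neither group had a second library, so differences have no replicate check, no p-value is given and each value compares these libraries only. Genes are called higher or lower where the fold is at least 2 and its interval does not reach 1. The ECL and endocrine markers went with the labels. All 8 were higher in the sorted library (summed 80290 CPM in sorted cells against 272 CPM in depleted epithelium). Hdc, 1 of these 8 (8422 CPM in sorted cells), drove the sort, so its direction is no independent result. Markers of other cells remained in the sorted library: 7 parietal markers summed to 1669 CPM in sorted cells against 13343 CPM in depleted epithelium, and 5 chief cell markers to 16188 CPM in sorted cells against 68897 CPM in depleted epithelium. Of the parietal markers 6 were called lower and 0 higher. Of the chief cell markers 2 were lower, 0 higher and 3 neither, among these Bhlha15 at 1.76-fold [1.53 to 2.02]. Pgc alone held most of both chief cell sums (14616 CPM in sorted cells against 62866 CPM in depleted epithelium). Pancreatic acinar markers were called higher for 6 of the 8 measured ones (summed 8997 CPM in sorted cells against 153 CPM in depleted epithelium). Pnliprp1 alone held most of the sorted sum (7317 CPM in sorted cells against 37.1 CPM in depleted epithelium), and Cela1 most of the depleted sum. The lipase gene Cel stood at 1128 CPM in sorted cells against 2.29 CPM in depleted epithelium and the trypsinogen gene Prss2 at 275 CPM in sorted cells against 1.02 CPM in depleted epithelium. The elastase gene Cela1 was called lower (34.4 CPM in sorted cells against 109 CPM in depleted epithelium). Among other enzymes of acinar cells, Cpa1 was at 0 counts in both libraries, Pnlip had 3 counts in sorted cells against 2 in depleted epithelium, and Amy2a5, which has near-identical copies, had 2 counts in sorted cells against 0 in depleted epithelium. In bulk RNA, fewer cells of a type and less RNA per cell cannot be told apart.

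Of the 66 genes, 42 were measured, meaning at least 10 counts in at least 1 library. The other 24 had fewer, and 10 of those were at 0 in both libraries. Of the 42 genes, 17 (40.5%) were called higher in sorted cells, against a background of 20.5% for all 16682 measured genes. In the other direction 6 were called lower (14.3%), against a background of 23.7%. Under a stricter call, 4-fold or more with an interval beyond 2-fold, 12 were higher and 6 lower, with 13% and 12.1% of all measured genes. The median log2 fold was 0.43 for the 42 genes and -0.16 for all measured genes. The count minimum bears on some calls. All 3 genes that reached 10 counts only in the sorted library were called higher, which the minimum and the deeper depleted library made certain. Of 5 genes that reached it only in the depleted library 3 were called lower, which the minimum did not force. The other 34 of the 42 reached 10 counts in both libraries, and 14 of these were higher and 3 lower. The matching share over all genes with 10 counts in both libraries was not computed, so these counts have no background beside them. The sum over the 66 genes was 2631 CPM in sorted cells against 1873 CPM in depleted epithelium.

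**Figure D1:**
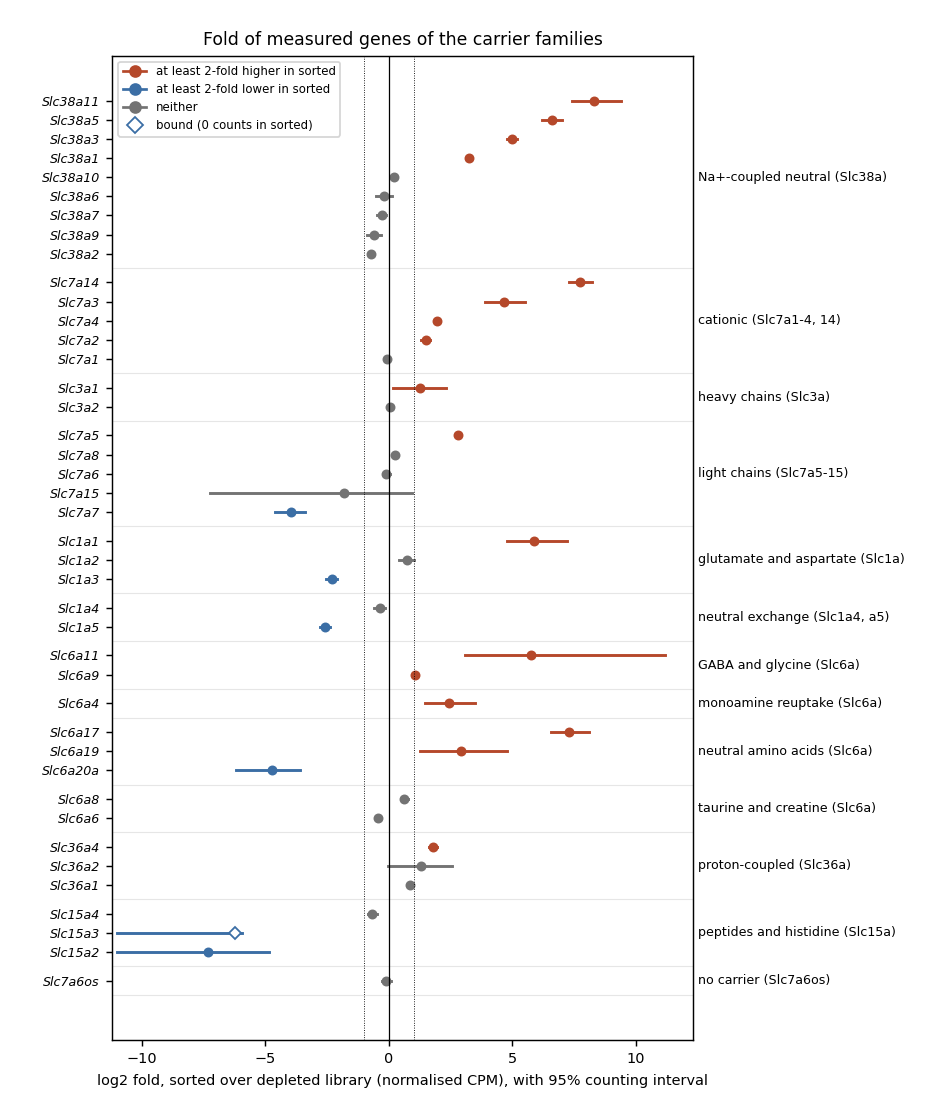
Log2 fold, sorted over depleted library, of measured carrier genes grouped by role; points are folds, lines are 95% counting intervals (cut at the axis ends where they run further), dotted lines mark 2-fold and the open diamond is a bound. The 17 higher genes include 4 Slc38a carriers and 4 cationic carriers. Of the peptide and histidine carriers, Slc15a2 and Slc15a3 lie far to the left and Slc15a4 (ratio 0.627) within 2-fold.

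The sodium-coupled neutral carriers of the Slc38a family were the class with the highest summed level. They had 9 measured genes, of which 4 were called higher in sorted cells and 0 lower, beside 20.5% and 23.7% of all measured genes. Slc38a5 (chromosome X), a system N carrier of glutamine, histidine and serine, had 1559 counts or 123 CPM [117 to 129] in the sorted library and 55 counts or 1.27 CPM [0.959 to 1.66] in the depleted library (96.8-fold [74 to 129]). Slc38a3 (chromosome 9), the other system N carrier, had 177 CPM [170 to 185] in sorted cells against 5.62 CPM [4.94 to 6.38] in depleted epithelium (31.5-fold [27.6 to 36.1]). Both system N genes were thus abundant in sorted cells and low in depleted epithelium. Slc38a1, a glutamine carrier prominent in neurons, stood at 194 CPM in sorted cells against 20.4 CPM in depleted epithelium (9.53-fold [8.82 to 10.3]). Slc38a11, a family member whose substrates are little known, stood at 73.9 CPM [69.2 to 78.8] in sorted cells against 0.231 CPM [0.111 to 0.426] in depleted epithelium. Its fold of 319 [173 to 668] was the highest of all 42 genes, and its depleted level rests on 10 counts, the minimum for a measured gene.

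The remaining Slc38a genes stayed within 2-fold. Slc38a2, the widely expressed carrier that cells induce when amino acids are scarce, stood at 212 CPM in sorted cells against 345 CPM in depleted epithelium (ratio 0.613 [0.588 to 0.639]). Slc38a10 stood at 184 CPM in sorted cells against 161 CPM in depleted epithelium (1.15-fold [1.09 to 1.20]). Slc38a7 and Slc38a9, both lysosomal, had ratios of 0.819 [0.723 to 0.926] and 0.661 [0.542 to 0.801]. Slc38a9 is the arginine-sensing lysosomal carrier that acts on the growth kinase complex mTORC1. Slc38a6 had a ratio of 0.876 [0.703 to 1.08], and 35.5% of its 50-base words also occur in transcripts of other genes. Slc38a8 was not measured, with 2 counts in sorted cells against 0 in depleted epithelium.

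Within the Slc38a family, taken without Slc38a4, the make-up therefore differed between the libraries, a comparison free of the scaling between them. Scaled to exon length, Slc38a5 made up 31.0% and Slc38a3 18.9% of the family's summed level in the sorted library, and 0.741% and 1.39% in the depleted library. Slc38a2 made up 13.5% of it in sorted cells against 51.0% in depleted epithelium. The ratio of Slc38a3 to Slc38a2, in CPM per kb of exon, was 1.40 in sorted cells against 0.0273 in depleted epithelium. That of Slc38a5 to Slc38a3 was 1.64 in sorted cells against 0.533 in depleted epithelium, so the system N genes differed between the libraries by unequal amounts.

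The cationic carriers move arginine, lysine and ornithine. They had 5 measured genes, of which 4 were called higher and 0 lower, beside 20.5% and 23.7% of all measured genes. Slc7a14 (chromosome 3), a member of this subgroup found in neural tissue and on intracellular membranes, had 2566 counts or 203 CPM [195 to 211] in sorted cells against 41 counts or 0.949 CPM [0.681 to 1.29] in depleted epithelium (214-fold [157 to 299]). Slc7a3 stood at 9.33 CPM in sorted cells against 0.370 CPM in depleted epithelium (25.2-fold [14.9 to 45.5]). Slc7a4, a relative whose transport function is not settled, was 3.83-fold higher [3.52 to 4.18] at 89.9 CPM in sorted cells against 23.4 CPM in depleted epithelium. Slc7a2, the inducible arginine carrier, was 2.81-fold higher [2.46 to 3.21]. Slc7a1, the broadly expressed arginine carrier, stood at 102 CPM in sorted cells against 108 CPM in depleted epithelium (ratio 0.949 [0.892 to 1.01]), within counting error of 1. Per kb of exon the level of Slc7a14 was 2.32 times that of Slc7a1 in the sorted library and 0.0103 times in the depleted one. Of the exon length of Slc7a4, 13.3% overlaps P2rx6, itself 14.4-fold higher [10.8 to 19.6], and without a stated strand setting reads of overlapping genes cannot be told apart.

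The carriers that pair a light chain with a heavy chain differed in the light chain. The heavy chain gene Slc3a2 stood at 186 CPM [179 to 194] in sorted cells against 182 CPM [178 to 186] in depleted epithelium (1.03-fold [0.979 to 1.07]). Slc7a5, the light chain that exchanges leucine, tryptophan, histidine and other large neutral amino acids, stood at 128 CPM in sorted cells against 18.7 CPM in depleted epithelium (6.87-fold [6.31 to 7.49]). Slc7a8, a light chain of similar substrates, stood at 169 CPM in sorted cells against 144 CPM in depleted epithelium (1.17-fold [1.12 to 1.23]). Slc7a5 and Slc7a8 thus had nearly equal levels per kb in the sorted library, with a ratio of 1.03, against 0.175 in the depleted library. Slc7a6 was within counting error of 1 (ratio 0.934 [0.841 to 1.04]). Slc7a7, the light chain that exports cationic amino acids in kidney, intestine and macrophages, had 24 counts in sorted cells against 1290 in depleted epithelium and was 15.7-fold lower [10.5 to 24.7] in the sorted one. Summed over Slc7a5, Slc7a6, Slc7a7, Slc7a8 and Slc7a10, the light chains came to 76.9 CPM per kb in sorted cells against 51.3 in depleted epithelium, with Slc3a2 at 52.8 in sorted cells against 51.5 in depleted epithelium. Slc3a1, the other heavy chain, had 14 counts in sorted cells against 20 in depleted epithelium (2.39-fold [1.12 to 4.98]). Its exon length overlaps that of Prepl by 26.5%, and its light chain Slc7a9 was not measured. Slc7a15 had 1 count in sorted cells against 12 in depleted epithelium, and Slc7a10, Slc7a12 and Slc7a13 had at most 1 count in either.

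Among the genes listed for histidine transport, 3 of 7 were higher (Slc38a5, Slc38a3 and Slc7a5), 1 was lower (Slc15a3) and 3 were neither. Of all measured genes, 20.5% were called higher and 23.7% lower. The 7 histidine transport genes summed to 807 CPM in sorted cells against 406 CPM in depleted epithelium. The 3 higher genes encode plasma membrane carriers, but so do Slc7a8 and, with its light chains, Slc3a2. Those genes were neither higher nor lower (1.17-fold and 1.03-fold). The lysosomal carrier Slc15a4 stood at 23.2 CPM in sorted cells against 36.9 CPM in depleted epithelium (ratio 0.627 [0.552 to 0.711]). Slc15a3, a lysosomal carrier of myeloid cells, had 0 counts in the sorted library (interval up to 0.292 CPM). In the depleted library it had 772 counts or 17.9 CPM. It was at least 61.1-fold lower by its interval, and 75.3-fold lower with 0 set to the floor of 3 counts (0.237 CPM). Slc15a2, a plasma membrane carrier of di- and tripeptides, had 1 count in sorted cells against 554 in depleted epithelium (ratio of depleted to sorted 162 [29.0 to 6417]). Slc15a1, the intestinal peptide carrier, had 4 counts in sorted cells against 6 in depleted epithelium, and Slc15a5 had 0 and 1. The exon length of Slc15a3 overlaps that of Tmem132a by 28.1%, and Tmem132a went the other way (6.66-fold higher [5.73 to 7.76]).

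Carriers of glutamate moved in opposite directions. Slc1a1, the glutamate and cysteine carrier of neurons and absorptive epithelia, had 119 counts or 9.41 CPM in sorted cells against 7 counts or 0.162 CPM in depleted epithelium (58.1-fold [27.3 to 148]). Slc1a3, which in brain is mainly a glial carrier, was 4.98-fold lower [4.29 to 5.82], at 14.4 CPM in sorted cells against 71.7 CPM in depleted epithelium. Slc1a2 stood at 10.6 CPM in sorted cells against 6.46 CPM in depleted epithelium (1.64-fold [1.33 to 2.02]). Even so, Slc1a3 stayed above Slc1a1 per kb in both libraries: the ratio of Slc1a1 to Slc1a3 was 0.676 in sorted cells against 0.00234 in depleted epithelium. Of the exon length of Slc1a1, 31.9% overlaps 4430402I18Rik, which had 17 counts in sorted cells against 31 in depleted epithelium. Slc1a6 and Slc1a7 were at 0 counts in both libraries, where the interval reaches 0.292 CPM in sorted cells against 0.0854 CPM in depleted epithelium. Of the neutral exchangers in the same family, Slc1a5, the glutamine exchanger that is high in dividing cells, was 5.97-fold lower [5.19 to 6.89], at 16.6 CPM in sorted cells against 99.1 CPM in depleted epithelium. Slc1a4, an alanine and serine exchanger, had a ratio of 0.773 [0.664 to 0.897].

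Genes lower in the sorted library stood beside markers of cells that the depleted library held. Surface mucous markers had the largest sum there, and all 3 measured were lower (3313 CPM in sorted cells against 153433 CPM in depleted epithelium). All 3 mucous neck markers were lower, with a sum of 794 CPM in sorted cells against 7212 CPM in depleted epithelium. Of 6 fibroblast markers 5 were lower. Of 6 endothelial markers 3 were lower and 2 higher, and their sum went the other way (21.1 CPM in sorted cells against 10.4 CPM in depleted epithelium). All 8 macrophage markers were lower, with a sum of 9.96 CPM in sorted cells against 2321 CPM in depleted epithelium, and none was at 0. Of the 6 proliferation markers 5 were lower, with a sum of 81.0 CPM in sorted cells against 645 CPM in depleted epithelium. All 5 tuft cell markers were lower, with a sum of 5.61 CPM in sorted cells against 244 CPM in depleted epithelium, and Pou2f3 and Ptgs1 were at 0 in sorted cells. The part of these cells in the folds of Slc15a3, Slc15a2, Slc7a7, Slc1a3, Slc1a5 and Slc6a20a was not tested. All 8 endocrine markers and 6 of 8 measured acinar markers, though not Cela1, moved with the higher genes, as did 4 of 4 measured neuron and glia markers (summed 36.6 CPM in sorted cells against 1.83 CPM in depleted epithelium). Among the markers not measured, Sox10 was at 0 in both and S100b had 2 counts in sorted cells against 5 in depleted epithelium. Of 7 mast cell markers 4 were higher and 0 lower (summed 258 CPM in sorted cells against 109 CPM in depleted epithelium). Their part in the folds was not tested either.

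The Slc6a family covers transmitters, osmolytes and neutral amino acids. Slc6a17 (chromosome 3), which in neurons loads neutral amino acids into synaptic vesicles, had 732 counts or 57.9 CPM [53.7 to 62.2] in sorted cells against 16 counts or 0.370 CPM [0.212 to 0.601] in depleted epithelium (156-fold [95.6 to 275]). Slc6a9, the plasma membrane glycine carrier, was 2.11-fold higher [1.96 to 2.27] at 91.9 CPM in sorted cells against 43.7 CPM in depleted epithelium, just past the 2-fold limit. Its exon length overlaps other genes by 30.2%, among them B4galt2, which was 19.2-fold higher [14.5 to 25.7]. The serotonin carrier Slc6a4 was low in both libraries, with 24 counts or 1.90 CPM in sorted cells against 15 counts or 0.347 CPM in depleted epithelium (5.47-fold [2.75 to 11.2]). The noradrenaline carrier Slc6a2 and the dopamine carrier Slc6a3 had at most 2 counts in either library. The GABA carrier Slc6a11 had 16 counts in sorted cells against 1 in depleted epithelium (54.7-fold [8.49 to 2292]). Slc6a12, Slc6a13 and the second glycine carrier Slc6a5 were not measured.

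Taurine and creatine carriers were abundant in both libraries. Slc6a6, the taurine carrier, stood at 206 CPM in sorted cells against 282 CPM in depleted epithelium (ratio 0.731 [0.700 to 0.762], a direction that turns when no scaling factor is used). Slc6a8, the creatine carrier, stood at 47.8 CPM in sorted cells against 31.0 CPM in depleted epithelium (1.54-fold [1.40 to 1.70]). Among the neutral amino acid carriers of the family, Slc6a20a, a proline carrier, was 26.3-fold lower [12 to 72.1] on 6 counts in sorted cells against 540 in depleted epithelium. It shares 26.7% of its 50-base words with other genes, first its paralog Slc6a20b, which had 1 count in each library. Slc6a19, the main neutral carrier of small intestine and kidney, had 11 counts in sorted cells against 5 in depleted epithelium (7.51-fold [2.41 to 27.6]). Slc6a7, Slc6a14, Slc6a15 and Slc6a18 were not measured. Neither was Slc6a21, at 0 counts in both libraries like the antisense genes Slc6a19os, Slc36a1os and Slc36a3os.

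The proton-coupled carriers of the Slc36a family had 3 measured genes. Of these, 1 was called higher and 0 lower, beside 20.5% and 23.7% of all measured genes. Slc36a4, a carrier of proline and tryptophan, was 3.43-fold higher [3.07 to 3.82] at 53.0 CPM in sorted cells against 15.5 CPM in depleted epithelium. Slc36a1, the lysosomal and brush border carrier of small neutral amino acids, lay just under the limit at 1.81-fold [1.68 to 1.95]. Slc36a2 had 10 counts in sorted cells against 14 in depleted epithelium (2.44-fold [0.970 to 5.91]), so its interval held 1, and it is called higher under 4 other scalings. Slc36a3 was not measured. Slc7a6os, which lies beside Slc7a6 and encodes no carrier, met the symbol rule and had a ratio of 0.932 [0.817 to 1.06].

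Levels between genes were compared per kb of annotated exon. In the sorted library Slc38a5 (55.0 CPM per kb [52.3 to 57.8]) and Slc3a2 (52.8 [50.7 to 55.0]) led, with overlapping intervals. Slc7a5 (34.6 [33.0 to 36.3]), Slc7a8 (33.7 [32.3 to 35.1]) and Slc38a3 (33.6 [32.2 to 35.0]) followed, and these also overlapped. Slc38a10 (28.7 CPM per kb), Slc6a6 (24.4) and Slc38a2 (23.9) completed the leading 8 of the sorted library. In the depleted library the order was Slc3a2 (51.5 CPM per kb), Slc38a2 (39.1), Slc6a6 (33.4), Slc7a8 (28.7), Slc38a10 (25.0), Slc1a5 (23.7), Slc7a1 (9.36) and Slc7a7 (9.0). Among all measured genes with a level per kb, Slc38a5 lay at percentile 96.8 in sorted cells against 21.4 in depleted epithelium, and Slc38a3 at 93.4 and 27.5. Slc38a11 lay at percentile 84.4 in sorted cells against 5.24 in depleted epithelium, Slc7a14 at 87.9 and 8.05.

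**Figure D2:**
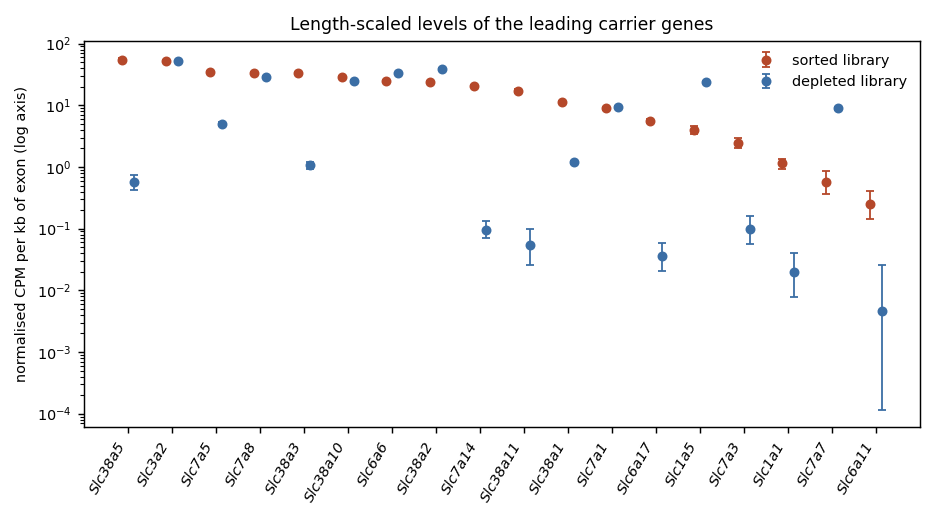
Normalised CPM per kb of exon (log axis) of the genes that lead by level or by fold, with 95% Poisson intervals and the sorted library left of the depleted one. Slc3a2 is alike in both (52.8 and 51.5 CPM per kb), while Slc38a5, Slc38a3, Slc7a14, Slc38a11 and Slc6a17 fall far lower in the depleted library.

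As a share of the summed level per kb of all 66 genes, the Slc38a carriers made up 37.9% in sorted cells against 24.4% in depleted epithelium, and the cationic carriers 12.2% in sorted cells against 5.23% in depleted epithelium. The heavy chains made up 11.4% in sorted cells against 16.4% in depleted epithelium. The light chains held a like share, 16.4% in each library. The Slc1a neutral exchangers made up 1.79% in sorted cells against 9.36% in depleted epithelium, and the Slc15a carriers 0.947% in sorted cells against 3.81% in depleted epithelium.

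**Figure D3:**
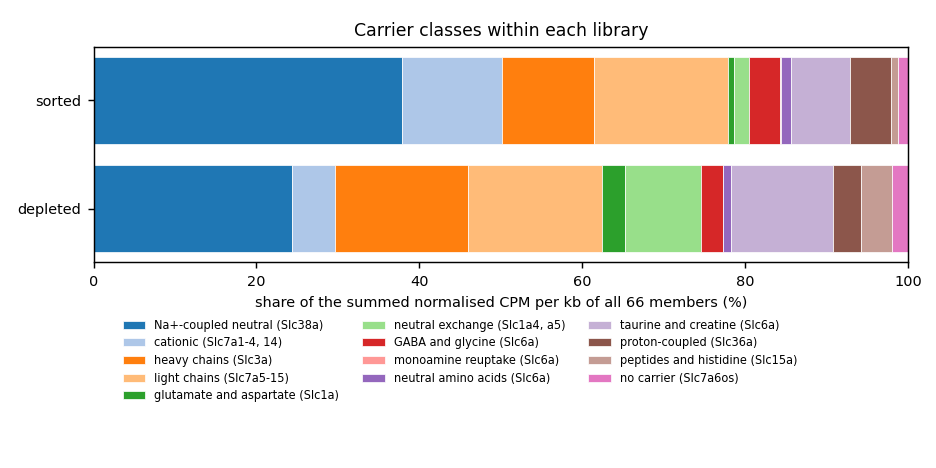
Share of each carrier class in the summed CPM per kb of the 66 genes, in percent, in the sorted library (top) and the depleted library (bottom). The Slc38a class (37.9% and 24.4%) and the cationic class (12.2% and 5.23%) are wider in the sorted library, the Slc1a neutral exchangers (1.79% and 9.36%) narrower.

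Promoter windows are shown for the genes whose interval starts farthest above 1. The windows come from RefSeq (GRCm38.p6), run from 250 bases before to 50 bases after the annotated start, and capitals mark the 50 bases from the start on. The build differs from that of the counts, so they serve as sequence only. Slc38a11 lies at chr2:65363977-65364276 on the minus strand, Slc7a14 at chr3:31310270-31310569 on the minus strand, Slc38a5 at chrX:8271131-8271430 on the plus strand and Slc6a17 at chr3:107517969-107518268 on the minus strand.
Slc38a11: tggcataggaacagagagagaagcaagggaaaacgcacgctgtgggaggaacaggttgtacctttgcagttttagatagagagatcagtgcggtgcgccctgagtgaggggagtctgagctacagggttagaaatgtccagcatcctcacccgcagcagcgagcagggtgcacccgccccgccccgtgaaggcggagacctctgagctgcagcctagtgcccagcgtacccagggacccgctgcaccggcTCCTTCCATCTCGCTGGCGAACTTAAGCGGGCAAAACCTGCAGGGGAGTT
Slc7a14: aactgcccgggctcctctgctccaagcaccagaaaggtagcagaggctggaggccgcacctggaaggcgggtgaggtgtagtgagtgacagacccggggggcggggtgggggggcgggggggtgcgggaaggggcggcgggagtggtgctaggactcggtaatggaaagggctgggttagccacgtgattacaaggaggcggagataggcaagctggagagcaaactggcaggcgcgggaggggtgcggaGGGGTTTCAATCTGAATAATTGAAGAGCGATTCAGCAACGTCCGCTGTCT
Slc38a5: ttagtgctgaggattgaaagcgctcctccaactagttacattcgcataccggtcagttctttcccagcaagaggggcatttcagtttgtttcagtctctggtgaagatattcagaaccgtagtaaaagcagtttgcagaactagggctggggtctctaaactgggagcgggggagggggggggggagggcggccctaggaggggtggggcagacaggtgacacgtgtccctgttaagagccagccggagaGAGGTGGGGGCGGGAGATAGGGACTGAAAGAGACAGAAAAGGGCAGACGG
Slc6a17: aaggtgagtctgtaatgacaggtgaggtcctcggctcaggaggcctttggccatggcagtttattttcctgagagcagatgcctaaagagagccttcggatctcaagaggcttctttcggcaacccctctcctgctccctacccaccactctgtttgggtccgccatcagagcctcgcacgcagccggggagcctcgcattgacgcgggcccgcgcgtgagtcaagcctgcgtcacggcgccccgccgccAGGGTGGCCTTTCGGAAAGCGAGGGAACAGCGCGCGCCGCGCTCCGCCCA

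RefSeq entries were found for 48 of the 66 genes. Each window was searched on both strands for TGATGCAA, a composite site of ATF4 and C/EBP factors that drives amino acid stress genes, for the cAMP response element TGACGTCA and for CACGTGAC, an E-box of lysosomal genes. None of the windows printed above held any of these. TGATGCAA was found in Slc1a4 and Slc7a7, which is 4.17% of the 48 genes, and in 1.03% of 27025 genes with an entry. Slc1a4 was neither higher nor lower, Slc7a7 was lower, and several of the higher genes have no window to search. TGACGTCA was found only in Slc38a6 and CACGTGAC only in Slc36a1 (2.08% of the 48 genes each, and 2.03% and 2.55% of all genes with an entry). Words chosen after the values were seen were CAGCACC and GGACAGC, parts of the element bound by the neuronal repressor REST, and CAGATGG, an E-box of proneural factors. They were found in 3, 7 and 4 of the 48 genes (6.25%, 14.6% and 8.33%) and in 8.14%, 7.59% and 6.02% of all genes with an entry. Of the carrier genes with these words only Slc6a9, which holds GGACAGC, was called higher. The rest were neither higher nor lower, or were not measured. A match describes these windows and shows no binding. The window of Slc7a7 (chr14:54417895-54418194, minus strand) is shown with TGATGCAA in capitals.
Slc7a7: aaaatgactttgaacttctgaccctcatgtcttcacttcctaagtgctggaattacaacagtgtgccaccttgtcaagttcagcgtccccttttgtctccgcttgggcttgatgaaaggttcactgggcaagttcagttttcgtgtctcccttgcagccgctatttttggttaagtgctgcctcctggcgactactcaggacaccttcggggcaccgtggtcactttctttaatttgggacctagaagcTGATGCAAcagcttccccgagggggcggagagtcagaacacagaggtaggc

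Genes that act beside these carriers were described by lists. Of 20 ATF4 and amino acid stress genes, 6 were higher and 2 lower, and the list's median log2 fold was 0.18. By CPM the leading ones were Nupr1, a stress-induced chromatin protein gene (18.3-fold higher [17.0 to 19.7]), Atf4 itself (1.03-fold [0.988 to 1.07]), the asparagine synthetase gene Asns (ratio 0.635 [0.598 to 0.673]) and the factor gene Atf5 (9.79-fold higher [8.75 to 11]). Of 28 genes of lysosomal amino acid sensing, 4 were higher and 2 lower, with a median of 0.09. Rraga, a GTPase gene of this complex, was 2.06-fold higher [1.93 to 2.19] and Castor2, a relative of the arginine sensor, 14.2-fold higher [12.4 to 16.4], while Mtor stood at a ratio of 0.711 [0.670 to 0.754]. Rragb, chosen after its value had been seen, was 23.8-fold higher [17.5 to 33.2]. Of 13 measured amino acid carriers outside the chosen families, 2 were higher and 4 lower, with a median of -0.22. These counts stand beside 20.5% of all measured genes called higher and 23.7% called lower.

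Enzymes that make and break glutamate and GABA split evenly, with 4 of 11 measured genes higher and 4 lower (median log2 fold 0.22), beside the same 20.5% and 23.7% of all measured genes. Gls2, a glutaminase gene whose product turns glutamine into glutamate, was 94.3-fold higher [70.0 to 130]. Glul, the glutamine synthetase gene, stood at 107 CPM in sorted cells against 654 CPM in depleted epithelium, 0.164 times as high [0.155 to 0.173]. Glud1, the glutamate dehydrogenase gene, was 1.16-fold [1.10 to 1.23]. Abat, the GABA breakdown enzyme gene, and Gad1, a GABA synthesis enzyme gene, both named after their values were seen, were 148-fold [84.2 to 289] and 181-fold higher [31.1 to 7284], the second on 53 counts in sorted cells against 1 in depleted epithelium. Among vesicular carriers, Slc18a2 and Slc18a1, which load monoamines, were higher in the sorted library (269-fold [246 to 293] and 257-fold [146 to 499]), and the nucleotide carrier Slc17a9 was 1.71-fold [1.5 to 1.96]. The vesicular glutamate carriers Slc17a6, Slc17a7 and Slc17a8 and the GABA carrier Slc32a1 were not measured, with at most 1 count each in sorted cells. Of 6 measured genes of histidine use, 1 was higher and 2 were lower. Hdc was the higher one (8422 CPM in sorted cells against 22 CPM in depleted epithelium). Cndp2, a peptidase gene, stood at 35.7 CPM in sorted cells against 84.3 CPM in depleted epithelium (2.36-fold lower [2.14 to 2.61]). Hal, the histidine breakdown enzyme gene, was lower too, with 5 counts in sorted cells against 198 in depleted epithelium (0.0863 times [0.0277 to 0.205]), and was named after its value was seen. Hdc drove the sort, so its fold is no independent result. The histidyl-tRNA synthetase genes Hars and Hars2 had ratios of 0.703 [0.640 to 0.772] and 1.23 [1.12 to 1.35]. Of 4 measured genes of carrier partners, 1 was higher and 0 were lower. Cltrn, which brings Slc6a19 to the surface in kidney, had 47 counts in sorted cells against 23 in depleted epithelium (6.98-fold [4.15 to 12]). The more abundant Arl6ip1 and Arl6ip5 had ratios of 0.948 [0.905 to 0.994] and 0.843 [0.787 to 0.902], and Pdzk1 had 0 counts in sorted cells against 10 in depleted epithelium.

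**Figure D4:**
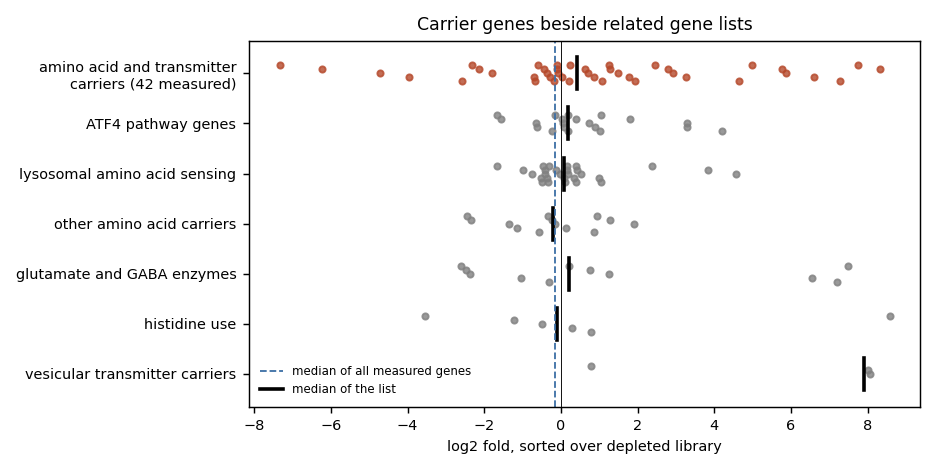
Log2 fold, sorted over depleted library, of each measured gene of the carrier families and of 6 related lists; black bars are list medians and the dashed line is the median of all measured genes (-0.16). The carrier families (median 0.43) spread from far below to far above 0, while most genes of lysosomal amino acid sensing lie near 0.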

How the data were processed

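RNA was sequenced from 2 libraries, 1 of sorted Hdc-CFP-positive corpus cells and 1 of depleted corpus epithelium. Per the labels' protocols, RNA came from a silica column kit and libraries were TruSeq RNA. The authors aligned reads to mm9 with TopHat2 2.0.07 and counted them with HTSeq, per the submitters' processing notes, which as used here give neither strand setting nor annotation. What they deposited are raw counts per Ensembl gene. Rows that name no gene were left out: in the sorted and depleted libraries they held 9.20% and 4.91% of alignments outside genes, 1.45% and 1.11% ambiguous and 24.2% and 34.3% not unique.

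Symbols and exon lengths came from GENCODE M21 (GRCm38), which named 32642 of 37681 identifiers. edgeR 4.0.16 TMM factors over all genes were 1.18 and 0.849. Fold intervals are exact Clopper-Pearson and CPM intervals exact Poisson, both 95%, for counting error only. The median log2 fold used 0.5 added counts, and 0 counts were set to 3 for bounds. On simulated counts with Poisson error only over 16682 genes, the call found 97% of genes changed 8-fold and 92% of those changed 3-fold, called 83 unchanged genes, and intervals held the true fold for 95.7% of genes. Alternatives were other scalings (DESeq2 1.42.0 among them), count minimums, shared words and interval rules. The members and lists were chosen with earlier results of these data known. Given in full are the histidine carriers, the 10 genes farthest in each direction by interval end and the 8 highest by CPM per kb in each library. From other lists at most the 4 with the highest CPM were named unless stated. A few genes that enter the counts and medians are not reported here by name or in the plots of single genes.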

Additional observations from a re-analysis of the deposited data

How the results depend on the processing

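No paired analysis was possible because each group held 1 library. Relative to the values reported, all measured genes shifted by 0.47 on the log2 scale without a scaling factor, by 0.31 with a total without the 20 most abundant genes, by 0.11 with upper-quartile factors and by 0.11 with TMM over measured genes (chosen after seeing the data). Under every scaling tried, 17 to 21 carrier genes were higher and 6 were lower, and no called gene changed direction. Slc36a2 gained the higher call under these 4 scalings, Slc36a1 and Slc1a2 under the first 2 and Slc6a8 under the first. The median log2 fold, 0.43 as reported, was 0.90, 0.74, 0.53 and 0.54 under those scalings in that order, 0.61 with no count minimum, 0.20 with at least 50 counts and 0.63 without Slc7a6os. The summed fold, 1.40 as reported, was 1.95, 1.74, 1.51 and 1.52 in the same order and 1.43 with DESeq2 size factors. Without genes that share over 5% of their 50-base words with others, 12 genes were higher in place of 17 (11 in place of 12 at 4-fold) and 3 lower in place of 6 by either call, with Slc7a7, Slc6a20a and Slc15a3 left out by that rule. With at least 50 counts, 13 were higher and 9 at 4-fold. For these rules and for the other scalings, the share of all measured genes called is not given here. The counts of carrier genes under them thus have no background beside them. Some genes within 2-fold turned: without a factor Slc1a4 came to 1.07, Slc6a6 to 1.01, Slc7a6 to 1.30, Slc7a6os to 1.29, Slc38a7 to 1.14, Slc7a1 to 1.32, Slc38a6 to 1.22 and the summed taurine and creatine carriers to 1.13. Without the 20 most abundant genes Slc7a6 and Slc7a6os came to 1.16 each, Slc38a7 to 1.01, Slc7a1 to 1.18, Slc38a6 to 1.09 and the taurine and creatine sum to 1.0. With upper-quartile factors Slc7a6 came to 1.01, Slc7a6os to 1.0 and Slc7a1 to 1.02, and with TMM over measured genes Slc7a6 and Slc7a6os came to 1.01 and Slc7a1 to 1.02. Low counts limit Slc6a11, Slc6a19, Slc6a4, Slc3a1 and Slc36a2.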

Other observations

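In the order of protein-coding genes of GRCm38.p6, several of these carriers lie next to each other, and adjacent members did not all move together. Slc38a1 and Slc38a2 are neighbours on chromosome 15, with Slc38a1 9.53-fold higher [8.82 to 10.3] and Slc38a2 at a ratio of 0.613 [0.588 to 0.639]. Slc7a6 and Slc7a6os, neighbours on chromosome 8, had nearly the same ratio (0.934 and 0.932).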
